A study of Mus musculus with 4 samples.

Results

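The MHC class I genes of the mouse H2 complex were followed in liver mRNA as 10 named genes of the 50584 gene symbols in the count files: H2-K1, H2-D1, H2-Q1, H2-Q2, H2-Q4, H2-Q6, H2-Q7, H2-Q10, H2-T22 and H2-T23. They were taken by symbol, and 10 of 10 were present. The livers came from 14-week-old male mice on chow, genotype WT, of the strains DBA/2J (2 libraries, H2d haplotype) and C57BL/6J (2 libraries, H2b haplotype). Poly(A) RNA was sequenced, per the labels, as single-end reads of 100 bases, and the series is concerned with the gene Mlycd in DBA/2J. Each strain is an inbred line, so the comparison is between 2 fixed haplotypes that differ at the H2 complex and across the rest of the genome. Nothing but the design text marks the libraries as separate animals, and p-values measure the spread between these libraries alone.

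Class I molecules are cell surface proteins made of a heavy chain, encoded in the H2 complex, and the light chain beta-2-microglobulin. They carry short peptides from inside the cell to the surface, where CD8 T cells and natural killer cells read them. H2-K1 and H2-D1 encode the classical, highly polymorphic heavy chains, and the Q and T regions hold nonclassical genes that are less polymorphic and more restricted in where they are expressed. H2-Q10 is known for its expression in liver, from which its product is secreted. The H2d haplotype also carries a gene, H2-L, that the C57BL/6J reference genome lacks.

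The 10 genes lie on chromosome 17 (GRCm38), with starts from 33996017 for H2-K1 to 36037128 for H2-T22, a span of 2041 kb, and 10 of 10 are annotated as protein-coding in GENCODE. H2-K1 stands alone at 33996017 to 34000333 on the reverse strand. H2-D1 (35262730 to 35267499, forward) is followed by the 6 Q genes, from H2-Q1 at 35320405 to the end of H2-Q10 at 35474563, on the forward strand. H2-T23 (36029773 to 36032855) and H2-T22 (36037128 to 36042747) lie on the reverse strand. Counts cover the exons of each gene, untranslated parts included.

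The upstream sequences of 5 members are shown so that the letters of elements known for class I transcription can be compared between the members with the highest levels (H2-K1, H2-D1, H2-Q10) and a neighbouring pair in which H2-Q7 was called lower in DBA/2J and H2-Q6 was not. Sequences are from RefSeq (GRCm38.p6), the 250 bases before the start that RefSeq lists, which for H2-D1 lies inside the gene span given above. They are those of C57BL/6J, and 9 of 10 members were matched, the exception being H2-Q1. Capitals mark the kB site of enhancer A (bound by NF-kB proteins, the longest run in capitals, starting GGGGA), GAANNGAAA (the core of an interferon response element), TGACG (a CRE-like site) and CCAAT, each on either strand. The windows are chr17:34000348-34000597 for H2-K1 (reverse strand) and, on the forward strand, chr17:35262844-35263093 for H2-D1, chr17:35424600-35424849 for H2-Q6, chr17:35438905-35439154 for H2-Q7 and chr17:35469839-35470088 for H2-Q10.
H2-K1: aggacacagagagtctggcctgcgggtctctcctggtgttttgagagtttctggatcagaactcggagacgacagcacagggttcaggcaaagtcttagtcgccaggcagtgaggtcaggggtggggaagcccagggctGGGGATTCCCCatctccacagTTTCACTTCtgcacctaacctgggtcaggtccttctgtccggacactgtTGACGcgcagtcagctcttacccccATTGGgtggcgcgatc
H2-D1: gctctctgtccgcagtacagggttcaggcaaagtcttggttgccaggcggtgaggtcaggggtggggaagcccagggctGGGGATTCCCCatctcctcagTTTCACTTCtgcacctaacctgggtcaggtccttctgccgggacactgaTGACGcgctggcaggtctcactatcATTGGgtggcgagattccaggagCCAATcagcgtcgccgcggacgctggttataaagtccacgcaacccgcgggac
H2-Q6: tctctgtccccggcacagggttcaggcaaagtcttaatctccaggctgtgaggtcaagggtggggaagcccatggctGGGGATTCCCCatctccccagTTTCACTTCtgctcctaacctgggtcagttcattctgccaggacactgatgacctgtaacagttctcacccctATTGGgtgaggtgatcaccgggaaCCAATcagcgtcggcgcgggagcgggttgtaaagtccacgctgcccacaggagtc
H2-Q7: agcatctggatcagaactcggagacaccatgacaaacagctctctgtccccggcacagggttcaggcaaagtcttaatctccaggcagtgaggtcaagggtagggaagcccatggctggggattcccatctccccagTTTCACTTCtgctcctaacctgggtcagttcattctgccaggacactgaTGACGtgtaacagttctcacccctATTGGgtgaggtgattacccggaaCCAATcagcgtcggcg
H2-Q10: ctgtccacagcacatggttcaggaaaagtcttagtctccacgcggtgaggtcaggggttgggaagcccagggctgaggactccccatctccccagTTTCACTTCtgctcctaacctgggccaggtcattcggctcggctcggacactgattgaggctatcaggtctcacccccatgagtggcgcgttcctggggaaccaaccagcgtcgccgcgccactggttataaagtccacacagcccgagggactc

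Of the 9 members matched, 3 held the exact kB letters (H2-K1, H2-D1 and H2-Q6), 6 the interferon element core, 5 the CRE-like site and 8 CCAAT. Other forms of the kB site were not counted. Among all 32851 RefSeq windows of the same length, 0.0304% held the exact kB letters (10 windows), 6.31% the interferon element core, 17.8% the CRE-like site and 33.8% CCAAT. Marked matches did not overlap in the sequences shown. Both H2-K1 and H2-D1 had all 4 motifs, H2-Q6 lacked the CRE-like letters, and of the motifs as spelled H2-Q10 held the interferon element core alone. H2-Q7 held the kB letters except the last C and was not counted, which does not show that it lacks a kB site. H2-Q4, whose sequence is not shown, differed from the kB letters at a single base. Such matches are letters in a window and say nothing of binding in these livers.

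Summed over the 10 genes, class I counts on the C57BL/6J reference were lower in DBA/2J liver, with most of the difference in H2-K1 and H2-Q10. H2-L is not among the 10 genes, and loss of H2d reads on that reference was not tested. Values are CPM, counts scaled to libraries of 1000000 counts with TMM factors. The sum was 2811 and 2662 CPM in DBA/2J against 6142 and 5876 CPM in C57BL/6J, with no overlap. Its mean was 2736 CPM ± 105 in DBA/2J and 6009 CPM ± 188 in C57BL/6J (SD, n = 2 each), 2.20-fold lower in DBA/2J and -1.13 as a log2 ratio. In raw counts the 10 genes held 0.282% and 0.281% of each DBA/2J library, against 0.595% and 0.573% of each C57BL/6J library. No test was made on sums, since the members were chosen as a group.

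By region, the sum of H2-K1 and H2-D1 was 931 CPM ± 84.4 in DBA/2J and 2400 CPM ± 163 in C57BL/6J, a log2 ratio of -1.37. The 6 Q genes summed to 1556 CPM ± 0.925 in DBA/2J and 3279 CPM ± 28.2 in C57BL/6J (-1.08). H2-T22 and H2-T23 together reached 250 CPM ± 19.8 in DBA/2J and 331 CPM ± 3.06 in C57BL/6J (-0.40; SD, n = 2 throughout). With H2-K1 and H2-Q10 left out, the other 8 genes summed to 978 and 858 CPM in DBA/2J against 1212 and 1038 CPM in C57BL/6J, a log2 ratio of -0.29. The 5 Q genes other than H2-Q10 summed to 149 and 139 CPM in DBA/2J, between the 200.2 and 121 CPM of the C57BL/6J libraries.

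**Figure D1:**
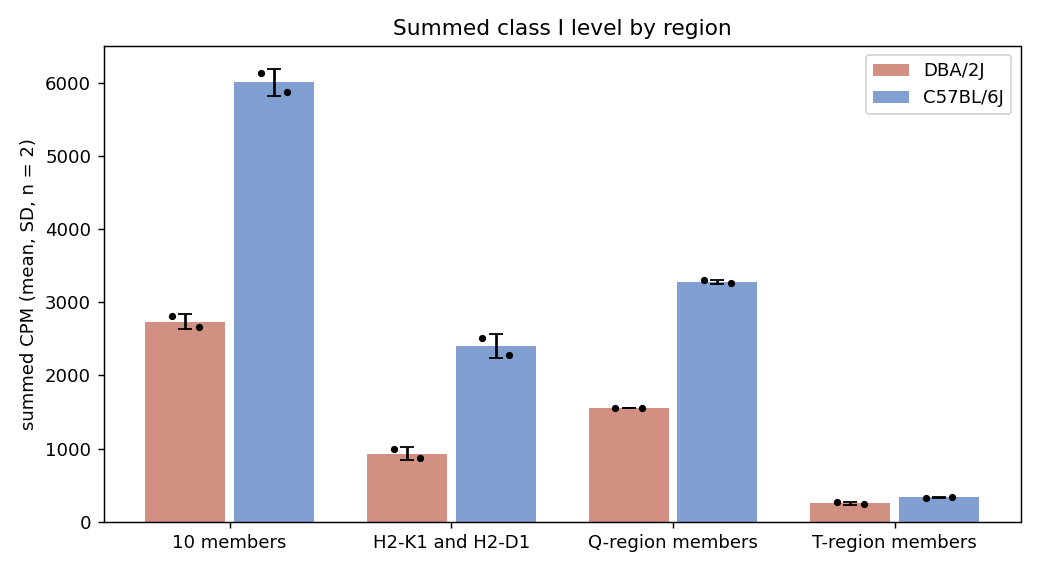
Summed CPM of the 10 class I genes and of their regions in liver, with DBA/2J left and C57BL/6J right in each pair; bars are means, error bars SD (n = 2) and points single libraries. The 10-gene sum is 2736 CPM in DBA/2J and 6009 CPM in C57BL/6J, and the T genes show the smallest gap of the 3 regions.

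Gene by gene, 2 members were higher and 4 lower in DBA/2J by edgeR's quasi-likelihood test (adjusted p below 0.05, Benjamini-Hochberg over all tested genes), and 4 were not called; 10 of 10 passed the filter on low counts. Over the 15647 genes tested, 18.2% were called, 9.29% higher and 8.87% lower. The strains' libraries did not overlap for 9 members, 3 above and 6 below in DBA/2J, beside 63.8% of all tested genes. The median log2 difference (DBA/2J over C57BL/6J) was -0.22 over the members and 0.01 over all tested genes. Over all genes 1454 were higher and 1388 lower. Scaling to library totals alone gave 1925 higher and 1026 lower, with a median log2 difference of 0.09, and left the members at 2 higher and 4 lower.

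**Figure D2:**
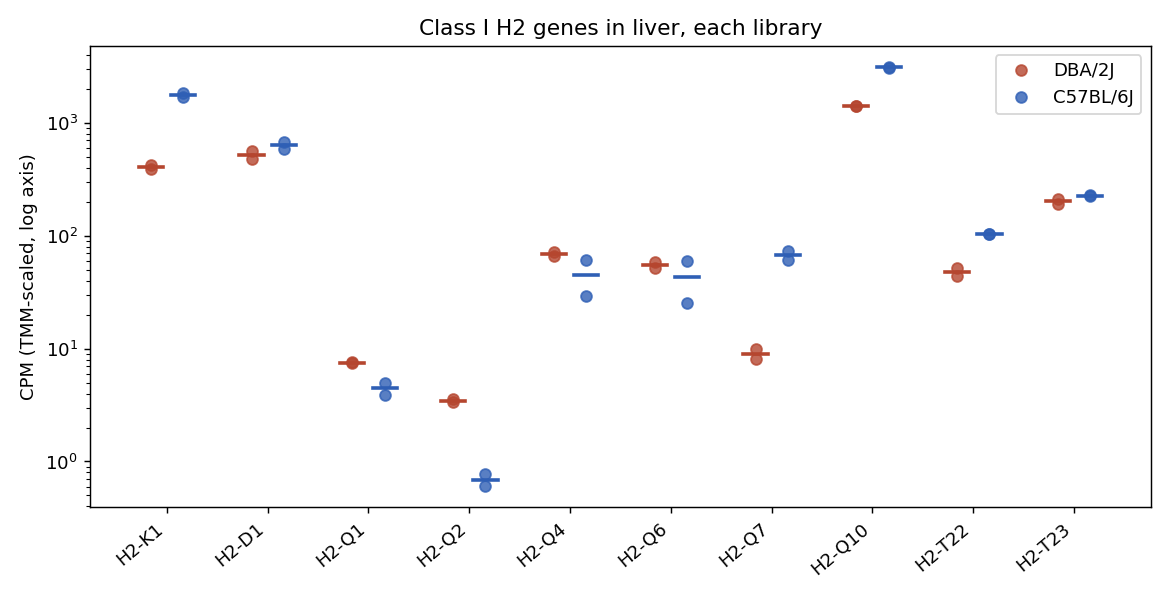
CPM of each class I gene in each library on a log axis, with DBA/2J left and C57BL/6J right of each gene name; points are libraries and horizontal lines are means. H2-K1, H2-Q7, H2-Q10 and H2-T22 sit lower in DBA/2J, H2-Q1 and H2-Q2 higher, and the C57BL/6J points of H2-Q4 and H2-Q6 are far apart.

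Of the classical pair, H2-K1 differed between the strains and H2-D1 was not called. H2-K1 had 20527 and 21439 counts in DBA/2J livers, against 89283 and 84892 in C57BL/6J. In CPM this was 425 and 387 in DBA/2J livers, against 1831 and 1700 in C57BL/6J livers, so each DBA/2J library was far below each C57BL/6J library. H2-K1 was 4.35-fold lower in DBA/2J, with a log2 difference of -2.12 ± 0.13 (SE) and an edgeR adjusted p of 7.55e-04. The call held with any single library left out (edgeR adjusted p up to 0.0308).

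H2-D1 had 565 and 484 CPM in DBA/2J, against 683 and 584 CPM in C57BL/6J. The groups did not overlap, but the gap between them was narrower than the gap within either strain. The log2 difference was -0.27 ± 0.13 (edgeR adjusted p = 0.202). The ratio of H2-K1 to H2-D1 counts needs no scaling between libraries: it was 0.752 and 0.801 in DBA/2J livers, against 2.68 and 2.91 in C57BL/6J livers. Thus, as counted on the C57BL/6J reference, H2-D1 had more counts than H2-K1 in the DBA/2J libraries and fewer in the C57BL/6J libraries.

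H2-Q10, the liver gene of the family, had the most counts of any member in each library and was lower in DBA/2J. It had 67924 and 78394 counts in DBA/2J livers, against 151092 and 156700 in C57BL/6J. Its level was 1407 and 1417 CPM in DBA/2J, against 3099 and 3138 CPM in C57BL/6J. Replicates of a strain lay close together and the strains were well apart. H2-Q10 was 2.21-fold lower in DBA/2J, at -1.14 ± 0.14 on the log2 scale (edgeR adjusted p = 0.0071). The call was lost with DBA/2J replicate 1 left out (edgeR adjusted p = 0.127) and with replicate 2 left out (0.118), while the log2 difference stayed between -1.16 and -1.14 in all 4 fits with a library left out.

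As a share of the 10 genes' counts, H2-Q10 overlapped between the strains, at 50.1% (95% exact binomial interval 49.8 to 50.3) and 53.2% (53.0 to 53.5) in DBA/2J, against 50.5% (50.3 to 50.6) and 53.4% (53.2 to 53.6) in C57BL/6J. The share of H2-K1 was 15.1% (14.9 to 15.3) and 14.6% (14.4 to 14.7) in DBA/2J, against 29.8% (29.65 to 29.98) and 28.9% (28.8 to 29.1) in C57BL/6J. H2-D1 held 20.1% (19.9 to 20.3) and 18.2% (18.0 to 18.4) in DBA/2J, against 11.1% (11.0 to 11.2) and 9.94% (9.83 to 10.1) in C57BL/6J. These intervals cover counting error only.

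The Q genes H2-Q6 and H2-Q7 belong to the group that encodes Qa-2 antigens, class I molecules held in the membrane by a lipid anchor. H2-Q7 had 391 and 549 counts in DBA/2J livers, against 3603 and 3065 in C57BL/6J. In CPM it stood at 8.10 and 9.92 in DBA/2J livers, against 73.9 and 61.4 in C57BL/6J livers. This was the largest fall among the 10 genes, 7.50-fold lower in DBA/2J, at -2.91 ± 0.15 on the log2 scale (edgeR adjusted p = 5.72e-04), and the call held with any single library left out (up to 0.0178).

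H2-Q6, whose start lies next before that of H2-Q7 among the members, had 2800 and 2852 counts in DBA/2J livers, against 2929 and 1280 in C57BL/6J. In CPM it had 58.0 and 51.5 in DBA/2J, inside the range of the C57BL/6J libraries at 60.1 and 25.6. Its log2 difference was 0.35 ± 0.37 (edgeR adjusted p = 0.543). The ratio of H2-Q6 to H2-Q7 counts was 7.16 and 5.19 in DBA/2J livers, against 0.813 and 0.418 in C57BL/6J livers. Summed as a pair, H2-Q6 and H2-Q7 reached 66.1 and 61.5 CPM in DBA/2J, against 134 and 87.0 CPM in C57BL/6J.

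H2-Q4 had 71.9 and 66.2 CPM in DBA/2J, against 60.4 and 29.2 CPM in C57BL/6J. Its log2 difference was 0.62 ± 0.32 (edgeR adjusted p = 0.224). For both H2-Q4 and H2-Q6 the C57BL/6J libraries were unlike each other, with replicate 1 at 2.07 times and 2.34 times replicate 2. Without C57BL/6J replicate 1 both genes were called higher in DBA/2J, H2-Q4 at 1.24 (edgeR adjusted p = 1.1e-04) and H2-Q6 at 1.09 (3.21e-04). Leaving out C57BL/6J replicate 2 gave a log2 difference of -0.135 for H2-Q6 and 0.19 for H2-Q4, neither called.

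The C57BL/6J replicates also differed in some genes outside the members. The interferon-induced chemokine gene Cxcl10, chosen after its values were seen, had 1.84 and 1.92 CPM in DBA/2J, against 45.8 and 3.38 CPM in C57BL/6J replicates 1 and 2. The acute phase gene Saa1, chosen in the same way, had 99.3 and 35.9 CPM in DBA/2J, against 1968 and 138 CPM in C57BL/6J. Summed CPM of 4 neutrophil markers was 0.497 and 0.253 in DBA/2J livers, against 5.89 and 0.260 in C57BL/6J livers, and 2 of the 4 were tested and 0 called. Of the 22 interferon-induced genes listed, 16 were higher and 6 lower in C57BL/6J replicate 1 than in replicate 2. Replicate 1 was also higher for 14 of 17 class I regulators and for each of 6 Kupffer cell and 7 sinusoidal endothelium markers. It was higher for 4 of 5 hepatocyte, 6 of 7 T and NK cell and 3 of 4 cholangiocyte markers. The same held for each of 4 B cell, 4 neutrophil and 4 stellate cell markers. Of 12 class I-like genes, 6 were higher, 5 lower and 1 equal. Of 22 other class I genes of the H2 complex, 10 were higher, 1 lower and 11 equal. Of 14 presentation machinery genes, 9 were higher and 5 lower in replicate 1. The share of all tested genes that were higher in replicate 1 was not counted, and these counts of direction take no account of size. The part of these differences in the H2-Q4 and H2-Q6 values was not tested. H2-K1, H2-Q10, H2-T22 and H2-T23 differed little between the C57BL/6J libraries, with replicate 1 at 1.08, 0.987, 1.003 and 0.98 times replicate 2. For H2-D1, H2-Q1, H2-Q2 and H2-Q7 replicate 1 was higher, at 1.17, 1.29, 1.30 and 1.20 times replicate 2.

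H2-Q1 and H2-Q2, the members higher in DBA/2J, were the lowest of the 10 genes in C57BL/6J. H2-Q2 had 161 and 197 counts in DBA/2J livers, against 38 and 30 in C57BL/6J. In CPM it stood at 3.34 and 3.56 in DBA/2J livers, against 0.779 and 0.601 in C57BL/6J livers, with no overlap. It was 4.99-fold higher in DBA/2J, at 2.32 ± 0.26 on the log2 scale (edgeR adjusted p = 0.00474).

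H2-Q1 had 369 and 409 counts in DBA/2J livers, against 244 and 194 in C57BL/6J, or 7.65 and 7.39 CPM against 5.004 and 3.89 CPM. The log2 difference was 0.76 ± 0.18 (edgeR adjusted p = 0.0412), a 1.69-fold higher level in DBA/2J, and with no filter on low counts it was not called (0.0679). Neither call held without DBA/2J replicate 1 (edgeR adjusted p = 0.289 for H2-Q1 and 0.0788 for H2-Q2) or without DBA/2J replicate 2 (0.244 and 0.0813).

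In the T region, H2-T22 was lower in DBA/2J and H2-T23 was not called. H2-T22 encodes a class I molecule recognised by a subset of gamma delta T cells. It had 2478 and 2461 counts in DBA/2J livers, against 5036 and 5142 in C57BL/6J, or 51.3 and 44.5 CPM against 103.3 and 103.0 CPM. H2-T22 was 2.15-fold lower in DBA/2J, at -1.11 ± 0.10 on the log2 scale (edgeR adjusted p = 0.00236), and kept its call with any single library left out (up to 0.0474).

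H2-T23 encodes Qa-1, which presents the leader peptides of other class I chains to the CD94/NKG2 receptors of natural killer cells. It had 212 and 191 CPM in DBA/2J, against 225 and 230 CPM in C57BL/6J. The strains did not overlap, and the log2 difference of -0.17 ± 0.09 was not called (edgeR adjusted p = 0.228). The ratio of H2-T23 to H2-T22 counts was 4.14 and 4.30 in DBA/2J livers, against 2.18 and 2.23 in C57BL/6J livers.

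**Figure D3:**
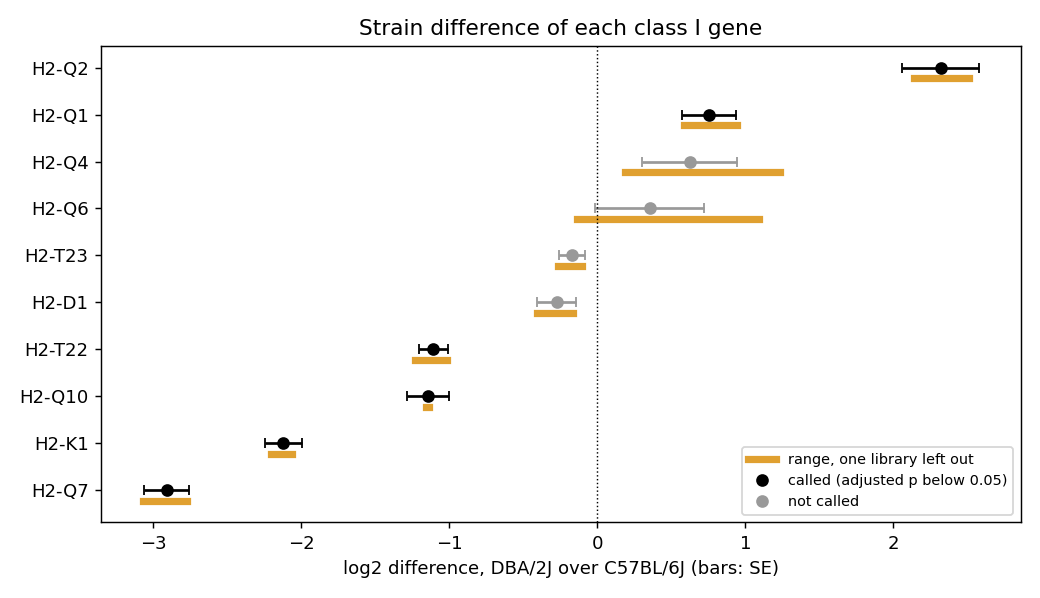
Log2 difference of each class I gene, DBA/2J over C57BL/6J, with SE bars (black for called genes, grey for the rest); orange lines span the values with a single library left out. H2-Q7 (-2.91) and H2-K1 (-2.12) lie farthest to the left, H2-Q2 (2.32) to the right, and the lines of H2-Q4 and H2-Q6 are the widest, with that of H2-Q6 crossing 0.

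Levels of different genes were set side by side per kilobase of exon (RPKM, CPM divided by the exon length given with the counts). That length takes in every annotated exon, from 2085 bases for H2-Q6 to 4265 for H2-Q7 and 4348 for H2-Q10. Orders by CPM can therefore differ. In C57BL/6J, mean CPM was 67.6 for H2-Q7, 44.8 for H2-Q4 and 42.9 for H2-Q6, and 3119 for H2-Q10 beside 1766 for H2-K1. In DBA/2J it was 9.01 for H2-Q7 and 7.52 for H2-Q1. Which exons were transcribed in these livers was not tested. In DBA/2J the order was H2-Q10 (325 RPKM), H2-D1 (203), H2-K1 (156), H2-T23 (69.9), H2-Q4 (26.6), H2-Q6 (26.3), H2-T22 (14.0), H2-Q1 (2.63), H2-Q7 (2.11) and H2-Q2 (1.58 RPKM). In C57BL/6J it was H2-Q10 (717 RPKM), H2-K1 (677), H2-D1 (246), H2-T23 (78.7), H2-T22 (30.2), H2-Q6 (20.6), H2-Q4 (17.3), H2-Q7 (15.9), H2-Q1 (1.55) and H2-Q2 (0.316 RPKM). Neighbours in these orders whose libraries overlapped were H2-Q4 and H2-Q6 in DBA/2J, and H2-Q6, H2-Q4 and H2-Q7 in C57BL/6J. H2-K1 was at 163 and 149 RPKM in DBA/2J, beside 324 and 326 RPKM for H2-Q10, while in C57BL/6J it was at 702 and 652 RPKM, beside 713 and 722 RPKM for H2-Q10.

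Sequence shared with other genes was counted over distinct stretches of 100 bases, the read length. The value is the percentage that occur unchanged in an annotated transcript of another gene, class I or not (GENCODE M21). This was 0.957% for H2-K1, 3.59% for H2-D1, 3.15% for H2-T23, 5.09% for H2-Q2, 8.01% for H2-Q10 and 8.05% for H2-Q1. Higher values were found for H2-Q7 (11.98%, mostly with H2-Q10, H2-Q5 and H2-Q6), H2-Q6 (13.0%), H2-Q4 (14.1%) and H2-T22 (31.5%). For H2-T22, 905 of 1186 shared stretches lay in A930015D03Rik, whose exons cover 29.4% of its exon bases, and 261 in H2-T10. For H2-Q4, 306 of 365 shared stretches lay in Gm11131, whose exons cover 19.1% of its exon bases.

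These figures hold for C57BL/6J sequence. DBA/2J reads, which come from H2d alleles, were counted on the C57BL/6J reference, where an allele that differs can lose reads or have them placed at another copy. Whether alignment contributes to the lower H2-K1, H2-Q7, H2-Q10 and H2-T22 counts, or reads of other copies to the higher H2-Q1 and H2-Q2 counts, was not tested. Whether reads of H2-L, which that reference lacks, were counted under H2-D1 or another copy was not tested either. The ratio of H2-K1 to H2-D1 counts carries the same limit. H2-Ea-ps is the class II gene that is known to be silent in H2b mice. It was chosen after its values were seen, so it is no independent check of the haplotype labels. It had 362 and 360 counts in DBA/2J livers, against 0 and 0 in C57BL/6J.

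Other genes of the region were called about as often as genes at large. Between the outermost members' starts, 98 other genes were tested, of which 9 were higher and 11 lower in DBA/2J, 20.4% beside 18.2% of all tested genes. The median log2 difference over these 98 genes was -0.20.

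**Figure D4:**
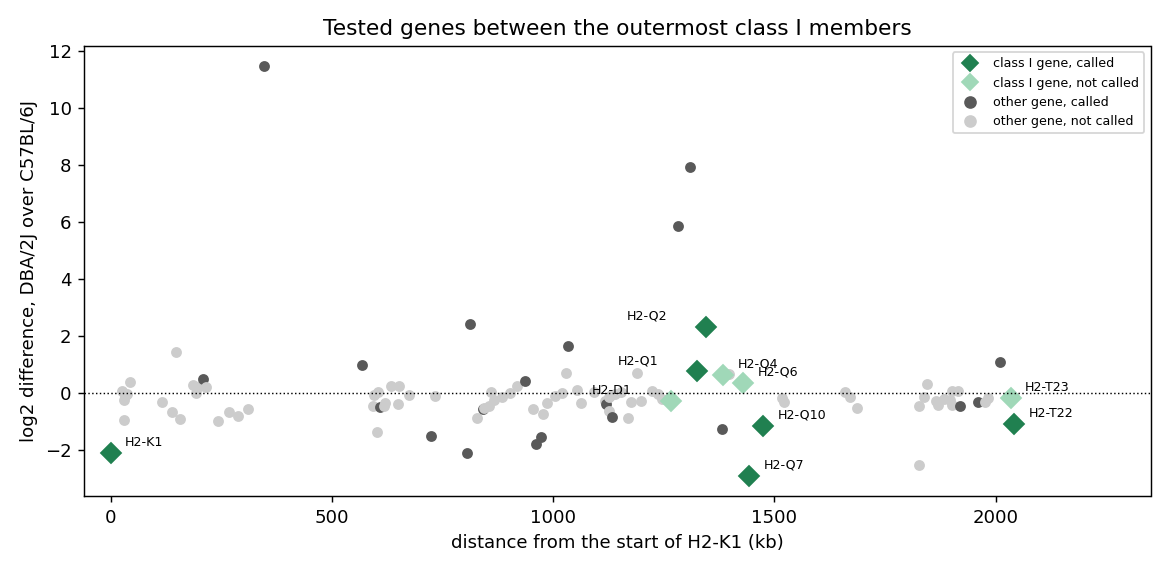
Log2 difference, DBA/2J over C57BL/6J, against distance from the start of H2-K1 in kb, for tested genes between the outermost class I members (diamonds, class I members; circles, other genes; dark, called). From left to right the class I members are below 0 at H2-K1 and H2-D1, above 0 from H2-Q1 to H2-Q6, and below 0 from H2-Q7 on. The points near 11.5, 7.92 and 5.87 are H2-Ea-ps, Gm18734 and Gm18733. Their C57BL/6J counts are 0 or 1, so the plotted values are no measure of size.

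Other class I genes of the H2 complex mostly had too few counts to be tested. Of 22 further symbols, 7 were tested and 8 had 0 counts in all libraries. Of the 7, 3 were higher in DBA/2J and 1 lower, with a median log2 difference of 0.65. The share to set beside this list and those that follow is 18.2% of all tested genes called, 9.29% higher and 8.87% lower. H2-T10, like H2-T22 a target of gamma delta T cells, had 9.22 and 8.69 CPM in DBA/2J, against 4.23 and 2.403 CPM in C57BL/6J (1.43 ± 0.28, edgeR adjusted p = 0.0225). Its sign was the opposite of that of H2-T22, with which it shares sequence.

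H2-T24 had a log2 difference of 1.10 ± 0.17 (edgeR adjusted p = 0.0128). The pseudogene H2-T-ps had 87 and 114 counts in DBA/2J livers, against 11 and 6 in C57BL/6J (3.47 ± 0.38, edgeR adjusted p = 0.00473). H2-K2 was lower, with 10.9 and 10.1 CPM in DBA/2J, against 30.7 and 16.1 CPM in C57BL/6J (-1.16 ± 0.30, edgeR adjusted p = 0.0494). Each of these 4 genes lost its call once a DBA/2J library was left out (edgeR adjusted p from 0.0648 to 0.268). H2-Q5 had 10.9 and 10.1 CPM in DBA/2J, against 10.1 and 3.26 CPM in C57BL/6J, where, like H2-Q4 and H2-Q6, it was higher in replicate 1 (edgeR adjusted p = 0.383).

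Of 14 genes that make, transport and load class I peptides, 2 were higher in DBA/2J, 3 lower and 9 not called, with a median log2 difference of -0.07. B2m, which encodes the shared light chain, had 1673 and 1462 CPM in DBA/2J, against 1819 and 1778 CPM in C57BL/6J. Its log2 difference of -0.20 ± 0.14 was not called (edgeR adjusted p = 0.363). Tap1 and Tap2 encode the subunits of the peptide transporter of the endoplasmic reticulum. Tap1 had 35.3 and 26.1 CPM in DBA/2J, against 32.8 and 28.5 CPM in C57BL/6J, with full overlap (0.00 ± 0.16, edgeR adjusted p = 0.994).

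Tap2 had 31.2 and 25.1 CPM in DBA/2J, against 19.7 and 20.1 CPM in C57BL/6J, and was higher at 0.50 ± 0.13 (edgeR adjusted p = 0.0494). Erap1, the peptidase that trims peptides for loading, was higher at 0.46 ± 0.09, with 106 CPM ± 7.10 in DBA/2J and 76.9 CPM ± 5.59 in C57BL/6J (SD, n = 2 each; edgeR adjusted p = 0.0269). The loading factors Tapbp and Tapbpl had log2 differences of -0.17 and 0.32, neither called (edgeR adjusted p = 0.324 and 0.0825).

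Lower were Psmb10, a catalytic subunit of the immunoproteasome (-0.69 ± 0.16, edgeR adjusted p = 0.0345), and both subunits of the PA28 proteasome activator, Psme1 (-0.32 ± 0.08, 0.0494) and Psme2 (-0.50 ± 0.08, 0.0148). The other immunoproteasome subunits, Psmb8 and Psmb9, had 26.1 and 21.97 CPM and 28.0 and 21.5 CPM in DBA/2J, against 21.0 and 19.5 CPM and 19.8 and 20.5 CPM in C57BL/6J, and were not called (edgeR adjusted p = 0.207 and 0.205). With either DBA/2J library left out 0 of the 14 were called, and the 5 genes above had edgeR adjusted p between 0.124 and 0.348. With RLE scaling 3 were called, and with no filter on low counts 1.

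**Figure D5:**
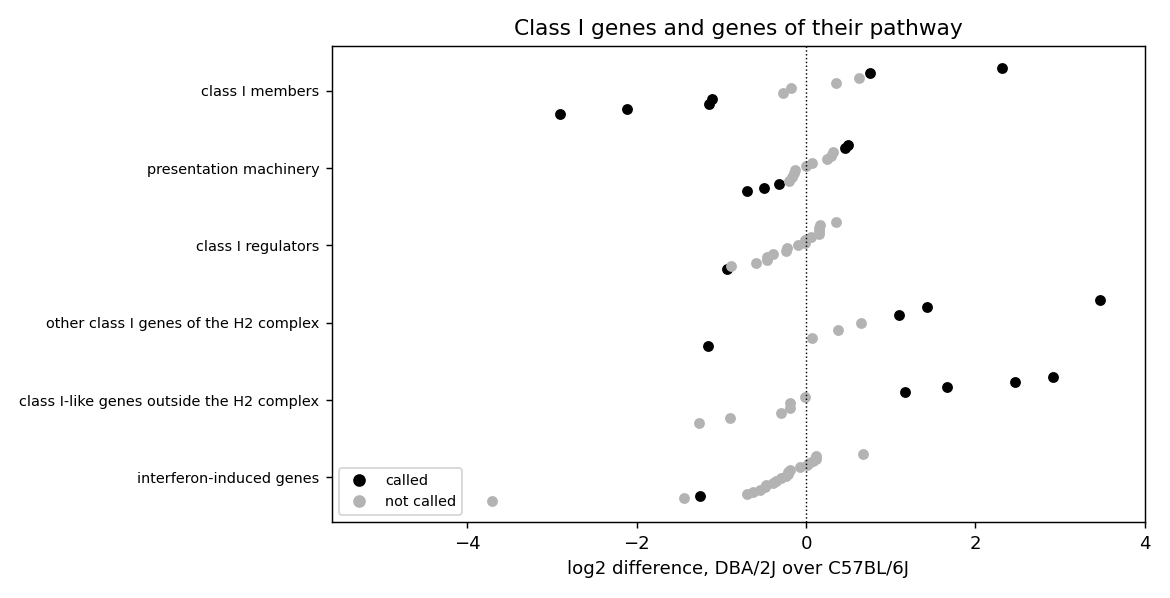
Log2 difference, DBA/2J over C57BL/6J, of the class I members and of the tested genes of 5 related lists; each point is a gene, black where called and grey where not. The members reach from -2.91 to 2.32, while 14 presentation machinery genes lie between -0.69 and 0.50.

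Of 17 regulators of class I transcription and interferon signalling, 1 was lower in DBA/2J and 0 higher, while 7 were lower when C57BL/6J replicate 2 was left out and 1 higher and 1 lower when replicate 1 was. Rfxank, a subunit of the RFX complex that binds MHC promoters, had 4.54 and 5.13 CPM in DBA/2J, against 9.33 and 9.17 CPM in C57BL/6J (-0.935 ± 0.15, edgeR adjusted p = 0.0132; 0.167 without DBA/2J replicate 1 and 0.125 without DBA/2J replicate 2). Nlrc5, the class I transactivator, had 33.5 and 28.4 CPM in DBA/2J, against 27.9 and 27.4 CPM in C57BL/6J, and was not called (edgeR adjusted p = 0.353). Irf1, an interferon-responsive transcription factor, had 43.7 and 44.6 CPM in DBA/2J, against 119.5 and 43.1 CPM in C57BL/6J (edgeR adjusted p = 0.213), the high value again in replicate 1.

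Among 22 interferon-induced genes, 1 was lower and 0 higher, with a median log2 difference of -0.26. Gbp3, a guanylate-binding protein gene, had 3.67 and 3.45 CPM in DBA/2J, against 9.74 and 7.25 CPM in C57BL/6J (-1.255 ± 0.20, edgeR adjusted p = 0.0134, and 0.146 once a DBA/2J library was left out). Leaving out C57BL/6J replicate 1 gave 1 higher and 4 lower, and leaving out replicate 2 of that strain gave 0 higher and 9 lower. The summed level of the 22 genes was 686 and 555 CPM in DBA/2J, against 858 and 630.1 CPM in C57BL/6J, with overlap.

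Class I-like genes outside the H2 complex were higher in DBA/2J in 4 of 10 tested cases and lower in 0. Over all tested genes 9.29% were higher and 8.87% lower. Mr1, which presents vitamin B metabolites to T cells, had 8.62 and 8.67 CPM in DBA/2J, against 3.69 and 4.03 CPM in C57BL/6J (1.16 ± 0.15, edgeR adjusted p = 0.00784). Raet1e, a ligand of the receptor NKG2D, had 15.3 and 15.4 CPM in DBA/2J, against 1.52 and 4.01 CPM in C57BL/6J (2.47 ± 0.41, edgeR adjusted p = 0.015). Mill2 (1.67 ± 0.31) and Cd1d2 (2.92 ± 0.54) were also called, at edgeR adjusted p of 0.0208 and 0.0206. Cd1d2 had 34 and 31 counts in DBA/2J livers, against 6 and 2 in C57BL/6J livers. Whether alignment of DBA/2J reads to the C57BL/6J reference contributes to these 4 differences was not tested. Each of the 4 lost its call once a DBA/2J library was left out (edgeR adjusted p from 0.118 to 0.197).

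The abundant class I-like genes were not called. Cd1d1, which presents lipids to natural killer T cells, had 221 and 226 CPM in DBA/2J, against 219 and 233 CPM in C57BL/6J. The neonatal Fc receptor gene Fcgrt, the iron regulator Hfe and Azgp1 had log2 differences of -0.19, -0.19 and -0.30 (edgeR adjusted p = 0.16, 0.155 and 0.159). The median log2 difference over the 10 genes was -0.10.

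In bulk liver, a change in the number of cells of a type cannot be told apart from a change in mRNA per cell. The 5 hepatocyte markers were present at 77894 to 81716 summed CPM in DBA/2J and 80270 to 89848 summed CPM in C57BL/6J, with 0 called. Of 6 Kupffer cell markers 1 was lower (Marco, -2.97), and of 7 sinusoidal endothelium markers 1 was higher (Stab2, 0.40) and 1 lower (Lyve1, -1.16). Of 4 stellate cell markers 1 was higher (Reln, 1.30), and 0 of 4 B cell and 0 of 4 cholangiocyte markers were called. With a DBA/2J library left out, 0 markers were called, and without C57BL/6J replicate 2 the total was 8. T and NK cell markers summed to 5.47 and 7.90 CPM in DBA/2J, against 9.76 and 5.07 CPM in C57BL/6J, and 1 of 7 passed the filter. The part of these cell types in the class I differences was not tested.

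Total counts per library were between 48096706 and 52520737. The 3 counts used as a floor were worth 0.0542 to 0.0622 CPM. Chi-square divided by its degrees of freedom was 18.7 between the DBA/2J replicates and 76.9 between the C57BL/6J replicates, above the 1 of pure counting error. The median absolute log2 gap between replicates was 0.14 in DBA/2J and 0.21 in C57BL/6J over 15464 genes. Calls over all genes fell to 292 without DBA/2J replicate 1 and to 313 without DBA/2J replicate 2. They numbered 3925 with C57BL/6J replicate 1 left out and 4905 with replicate 2 left out.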

How the data were processed

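The values are counts of reads per gene symbol as the authors deposited them. The file headers name featureCounts 2.0.1 with GRCm38 exons from Ensembl release 88, collected under each gene name, and set no option for strand, multiple alignments or overlapping genes. They carry the paired-end option, although the labels state single-end reads; what that did to the counts was not tested. Per the submitters' processing notes, STAR 2.4.0g1 and featureCounts 1.5.2 were used with mm10. With no such option set, featureCounts was left at its defaults for reads with multiple alignments or over overlapping genes. How the aligner treated reads that fit several class I copies is not given in the sources used here.

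From these counts, edgeR 4.0.16 (R 4.3.3) quasi-likelihood tests (legacy=FALSE, TMM scaling, strain alone, filterByExpr with a minimum count of 10) were fitted over 15647 genes, adjusted by Benjamini-Hochberg and called below 0.05. SE values were derived from F. Alternatives included DESeq2 1.42.0. The fit was also run on simulated data with the same spread in both strains, unlike these libraries. That run does not vouch for the calls made here. Members and lists were chosen with earlier results of these data known. Named genes were the members, the called genes of each list (up to 6) and B2m, Tap1, Tap2, Tapbp, Nlrc5 and Irf1, and 1 further gene of that rule is not reported here. Other genes named from the lists (Tapbpl, Psmb8, Psmb9, H2-Q5, H2-M3, Cxcl10, Cd1d1, Fcgrt, Hfe and Azgp1) were chosen after their values were seen. Names matched 9 of 10 members to RefSeq promoters. The labels give no batch. Same-numbered libraries did not deviate together, so the numbers were not taken as pairs.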

Additional observations from a re-analysis of the deposited data

How the results depend on the processing

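The 4 lower members were lower in each alternative, and 3 to 4 of them stayed called with a library left out. With RLE scaling 3 presentation machinery genes were called. With library totals alone 2 regulators were called, and the log2 ratio was -1.05 for the 10-gene sum and -0.99 for the Q genes. With no filter on low counts there were 1516 calls over all genes, 1 higher member (H2-Q1 at an adjusted p of 0.0679 was lost), 1 machinery gene, 2 other class I genes of the H2 complex and 2 cell type markers. The older edgeR form gave 2 interferon-induced genes, and DESeq2 gave 5 of these and 2 regulators. With the replicate block, 1 member was higher (H2-Q1 had an adjusted p of 0.052) and 3 machinery genes, 2 regulators and 3 interferon-induced genes were called, with 2395 calls over all genes; deviations of same-numbered libraries correlated at 0.02 over genes, so the libraries share only a number. The cause of these changes was not tested, except that no filter adds genes to the adjustment. With each library left out in turn, calls over all genes ranged from 292 to 4905, higher members from 0 to 4, machinery genes from 0 to 6, regulators from 0 to 7, other class I genes from 0 to 5, class I-like genes from 0 to 4, interferon-induced genes from 0 to 9, cell type markers from 0 to 8, and the log2 ratio of the Q genes from -1.09 to -1.07. H2-Q6 ranged from -0.135 (without C57BL/6J replicate 2, the opposite sign) to 1.09. Where 1 DBA/2J library remained, the spread came from C57BL/6J alone, and the lone library was assumed to vary alike. H2-Q2 rests on 30 to 38 counts in C57BL/6J, and with 2 libraries a strain a p that misses the threshold does not show that levels are alike.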

Other observations

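In the interval between H2-D1 and H2-Q1, 2 predicted genes, chosen after their values were seen, had reads in DBA/2J and next to none in C57BL/6J. Gm18733 (chromosome 17, 35278176 to 35279414) had 34 and 42 counts in DBA/2J livers, against 1 and 0 in C57BL/6J. Gm18734 (35304206 to 35306317) had 26 and 36 counts in DBA/2J livers, against 0 and 0 in C57BL/6J, where the floor of 3 counts is worth 0.0615 and 0.0601 CPM.

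The H2-M genes, distal class I genes known for restricted expression, had at most 6 counts in any library apart from H2-M3, which presents formylated peptides. H2-M3 had 113 and 129 counts in DBA/2J livers, against 119 and 100 in C57BL/6J livers, a log2 difference of 0.07 (edgeR adjusted p = 0.847).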
